A study of Arabidopsis thaliana with 5 samples.

Results

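GSTU20, GSTU22 and GSTU25 encode glutathione transferases of the tau class in Arabidopsis thaliana. They were chosen by their higher values after brassinolide on these same arrays, by symbol, and are 3 of 13356 genes with a probe set that names exactly 1 gene. The other 8 measured genes with a symbol starting GSTU served as background. The RefSeq gene table lists 28 tau-class genes, so 17 were not analysed here, among them GSTU19 and GSTU24, which lie next to members.

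Glutathione transferases join the tripeptide glutathione to reactive, often toxic molecules, which makes them soluble and marks them for transport into the vacuole. The tau class is found in plants, has expanded through tandem duplication, and is known for genes that respond to xenobiotics, oxidative stress and hormones. The protein of GSTU20 is known to bind FIN219/JAR1, the enzyme that makes active jasmonate, and that of GSTU25 is known to act on the explosive trinitrotoluene. Brassinolide (BL) is the most active natural brassinosteroid, a steroid hormone of growth that is perceived at the cell surface by BRI1 and, in some cell types, by its relatives BRL1 and BRL3.

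BL seedlings were treated with 10 nM BL for 2 h (2 arrays, replicates 1 and 2), and the control seedlings spent the same time in ethanol as mock (3 arrays, replicates 1 to 3). All were 6 days old, in liquid medium, and carried pBRL3:nlsYFP, a yellow fluorescent protein sent to the nucleus under the BRL3 promoter. Primary root tips were turned into protoplasts, the cells in which that promoter was active were sorted by fluorescence, and Affymetrix ATH1 arrays were used to measure transcripts. The transgene marks cells by 1 promoter, and every group went through the same digestion and sorting. Since RNA was measured in bulk, a lower share of cells with a transcript and less of it per cell cannot be told apart. Whether replicates are separate batches of seedlings is not stated, so the errors below measure the spread between arrays, which may be technical.

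Control replicates 2 and 3 stood apart from the other arrays in their spike-in values. The poly-A spike-in probe sets, for bacterial transcripts added before labelling, had 3' medians over 9 probe sets of 4.44 and 4.68 on BL replicates 1 and 2, against 4.71, 8.01 and 7.39 on control replicates 1, 2 and 3. Differences are therefore also given against control replicate 1 alone, which is a single array with no spread of its own. Over all probe sets, the mean correlation with the other arrays was 0.952 and 0.956 on BL replicates 1 and 2. It was 0.952, 0.907 and 0.943 on control replicates 1, 2 and 3, so control replicate 3 was not far from the others there. Median values of an array ran from 5.57 to 5.66, and the lower quartile from 4.11 to 4.29. Of the markers fixed for root cell types, 4 of 13 for the stem cell niche, 3 of 17 for vascular tissue, 3 of 11 for epidermis and root hairs and 1 of 8 for leaf had a probe set that names 1 gene under the symbols searched. None of those for cortex and endodermis or for the root cap did, and BRL3 itself was not analysed here. The mean log2 value of the stem cell niche markers was 5.599 and 5.16 on BL replicates 1 and 2, against 4.97, 4.74 and 5.23 on control replicates 1, 2 and 3. That of the epidermal markers was 4.86 and 5.30 on the BL arrays, against 4.12, 5.50 and 4.27, and that of the vascular markers was 7.05 and 6.88, against 7.22, 7.03 and 7.47. In all 3 lists the means of the groups overlapped. Single markers without overlap, named after their values were seen, were 1 of 3 epidermal, 1 of 3 vascular and 0 of 4 stem cell niche markers. Over all probe sets, both BL arrays lay above every control for 11.4% and below every control for 9.75%. ATMYC1, of epidermal cell fate, had 5.14 and 5.40 on the BL arrays, against 3.80, 3.80 and 3.77 on control replicates 1, 2 and 3 (limma adjusted p = 0.317). PHV, of vascular patterning, had 7.73 and 7.47 on the BL arrays, against 8.16, 8.42 and 8.82 on control replicates 1, 2 and 3 (limma adjusted p = 0.613). The other measured markers of these lists overlapped between groups. Their log2 differences BL minus control were -0.27 for EXPA7 and 0.14 for EXPA18, both epidermal, and -0.07 for OPS and 0.10 for LHW, both vascular. For the stem cell niche they were 0.70 for BRL1, 0.58 for BBM, 0.47 for JKD and -0.16 for AGL42. The part of the cell mixture in the results below was not tested.

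GSTU20 had log2 values of 7.57 and 7.83 on BL replicates 1 and 2, against 6.01, 4.196 and 4.58 on control replicates 1, 2 and 3. Both BL arrays lay above every control, and the groups were separated by 1.55 between the lower BL value and the highest control. Its mean was 7.70 ± 0.187 over BL arrays (SD, n = 2) and 4.93 ± 0.958 over control arrays (SD, n = 3). The log2 difference was therefore 2.77 ± 0.613 (SE from limma), or 6.82-fold. Among the 3 members it had both the widest difference and the widest spread over the controls. The value of control replicate 2 was below the lower quartile of its array, so part of that spread lies in a range where the signal over background is unknown. Against control replicate 1 alone the difference was 1.69, a fold of 3.22.

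GSTU25 had log2 values of 10.85 and 11.34 on BL replicates 1 and 2, against 10.09, 9.66 and 9.03 on control replicates 1, 2 and 3. The groups did not overlap, and the gap between them was 0.755. Its mean was 11.09 ± 0.35 over BL arrays (SD, n = 2) and 9.59 ± 0.534 over control arrays (SD, n = 3). The log2 difference was therefore 1.501 ± 0.378 (SE), or 2.83-fold. Against control replicate 1, the highest of the controls for this gene, the difference was 1.002, a fold of 2.00.

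GSTU22 had log2 values of 10.62 and 11.45 on BL replicates 1 and 2, against 9.99, 10.0 and 9.05 on control replicates 1, 2 and 3. The BL arrays again lay above all controls, with a gap of 0.617. Its mean was 11.04 ± 0.589 over BL arrays (SD, n = 2) and 9.68 ± 0.547 over control arrays (SD, n = 3). The log2 difference was therefore 1.36 ± 0.439 (SE), or 2.57-fold. Its BL arrays were 0.832 apart, the widest distance among the 3 members, against 0.494 for GSTU25 and 0.264 for GSTU20. The difference from control replicate 1 was 1.05, a fold of 2.08.

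**Figure D1:**
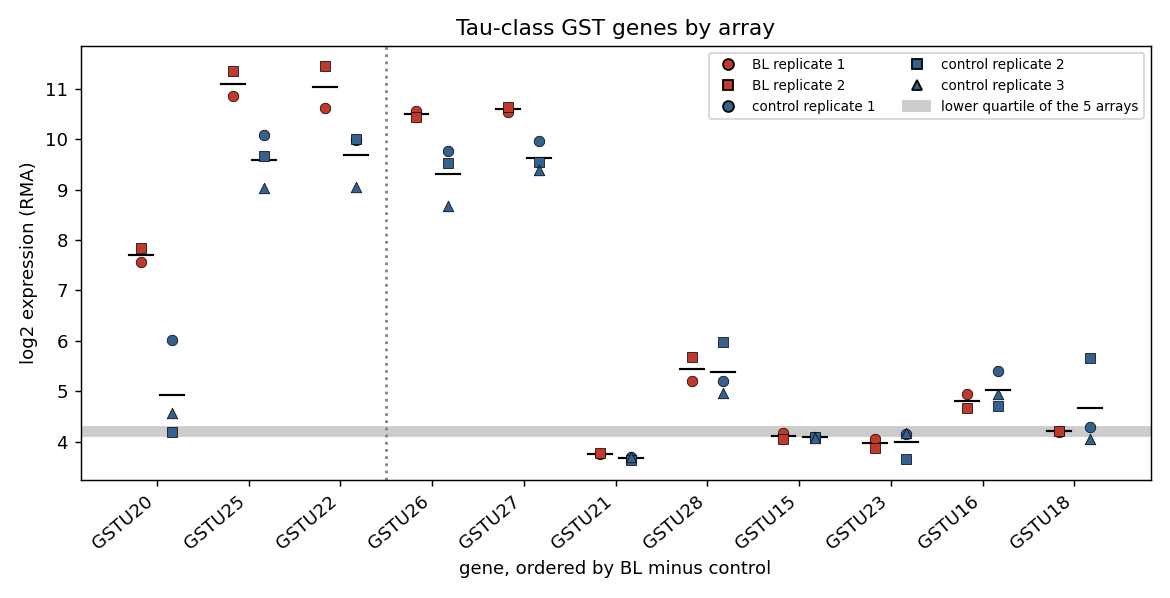
The log2 expression value (vertical axis) of 11 tau-class genes (horizontal axis) on each array, with BL arrays in red to the left and control arrays in blue to the right of each gene, group means as black lines, and a dotted line that divides the 3 members from the other 8 genes. For GSTU20 the BL arrays stood at 7.57 and 7.83, above control values of 4.196 to 6.01, and GSTU25, GSTU22, GSTU26 and GSTU27 also show the BL arrays above the controls, while GSTU21, GSTU15 and GSTU23 sit at or below the grey band of the lower quartiles.

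The choice of these genes used exactly these values, so the numbers describe them and test nothing. As a scale, a log2 difference as high as that of GSTU20 was reached by 0.132% of the 22746 probe sets, that of GSTU25 by 1.38% and that of GSTU22 by 1.82%. Against control replicate 1 these shares were 0.347%, 1.77% and 1.58%. Both BL arrays lay above every control for 11.4% of all probe sets, and above control replicate 1 for 36.9%. In the fit across all probe sets, limma with Benjamini-Hochberg adjustment called 0% of them at an adjusted p under 0.05, the members included. The smallest adjusted p of any probe set was 0.168, and 1616 probe sets had an unadjusted p under 0.05, or 7.1%. An unadjusted p under 0.01 together with a fold of 1.5 or more, in either direction, was met by 1.57%.

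**Figure D2:**
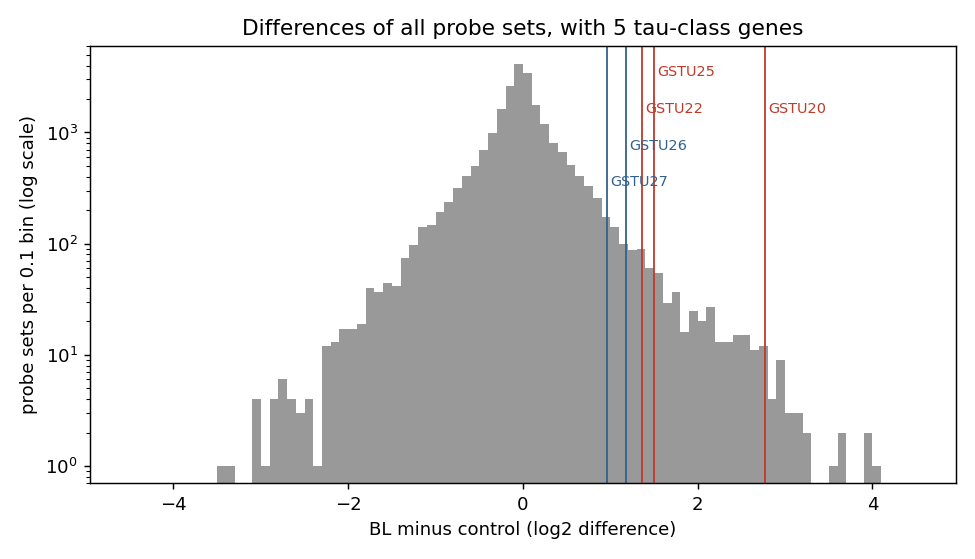
The number of probe sets in bins of the log2 difference BL minus control (horizontal axis, bins of 0.1), on a logarithmic vertical axis, for all 22746 probe sets. Red lines mark GSTU20 at 2.77, GSTU25 at 1.501 and GSTU22 at 1.36 on the right flank, and blue lines mark GSTU26 at 1.18 and GSTU27 at 0.96.

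The members did not vary in the same way over the control arrays, whose values also enter the differences above. Without control replicate 2 the log2 difference of GSTU20 was 2.403, and without control replicate 1 it was 3.31. GSTU22 and GSTU25 were lowest on control replicate 3, at 9.05 and 9.03. GSTU20 was lowest on control replicate 2, at 4.196, and its control range of 1.82 exceeded those of GSTU25 at 1.06 and GSTU22 at 0.957. The control SD of a probe set had a median of 0.264 over all probe sets, and 7.92% of them had a control SD at least as high as that of GSTU20. The SD over the 2 BL arrays had a median of 0.0816, so the controls spread more widely across all probe sets. BL replicate 2 was the higher BL array for all 3 members.

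GSTU26, the gene directly after GSTU25 in gene order, came closest to the members among the other tau-class genes. It had log2 values of 10.56 and 10.43 on BL replicates 1 and 2, against 9.76, 9.52 and 8.67 on control replicates 1, 2 and 3. The BL arrays lay above all controls, with means of 10.49 ± 0.091 (SD, n = 2) for BL and 9.32 ± 0.574 (SD, n = 3) for control. The log2 difference of 1.18 ± 0.371 (SE), or 0.73 against control replicate 1, did not pass the test over all probe sets (limma adjusted p = 0.655).

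GSTU27, which stands alone in gene order, had log2 values of 10.55 and 10.64 on BL replicates 1 and 2, against 9.96, 9.54 and 9.39 on control replicates 1, 2 and 3. These groups were also apart, by 0.584, and both were tighter than those of the members. The log2 difference was 0.96 ± 0.204 (SE), a fold of 1.95, and 0.63 against control replicate 1. It did not pass either (limma adjusted p = 0.568), although its unadjusted limma p of 0.00808 was the smallest of the 8. The members ended at GSTU22 with 1.36 and the background began at GSTU26 with 1.18, a distance below the standard error of either.

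The other 6 tau-class genes were all within 0.5 of the controls on the log2 scale. GSTU21 was at 3.76 and 3.77 on BL replicates 1 and 2, against 3.69, 3.64 and 3.69 on control replicates 1, 2 and 3. Its BL arrays lay above every control by a margin of only 0.0708, and all 5 values were below the lower quartile of their arrays. Its values on control replicates 1 and 3 were identical, and 44.7% of all probe sets had tied values over the 5 arrays. GSTU15 and GSTU23 differed by 0.02 and -0.02, GSTU28 by 0.06, GSTU16 by -0.21 and GSTU18 by -0.46. These genes were low as well. GSTU15 lay below the lower quartile on 1 BL array and 3 control arrays, and GSTU23 on 2 BL arrays and 1 control array. GSTU28, GSTU16 and GSTU18 had control means of 5.38, 5.02 and 4.67, where array medians ran from 5.57 to 5.66. A difference could go unseen at such signals. The value of GSTU16 was -0.019 without control replicate 1 and -0.60 against that array alone. For GSTU18 the controls ranged over 1.59, with control replicate 2 at 5.65 and both BL arrays at 4.19 and 4.22. Among the 8 background genes 5 had a higher mean with BL, as did 45.2% of all probe sets, and 3 a lower one. Both BL arrays lay above every control for 3 of the 8 and below every control for none, where all probe sets had 11.4% and 9.75%. None of the 8 passed over all probe sets (limma adjusted p 0.568 to 0.988). At an unadjusted p under 0.05 there were 2 of the 8, GSTU26 and GSTU27, where all probe sets had 7.1%. The median log2 difference of the 8 was 0.04, and that of all probe sets was -0.02. The median of the 8 rests mostly on the 6 genes of low signal.

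**Figure D3:**
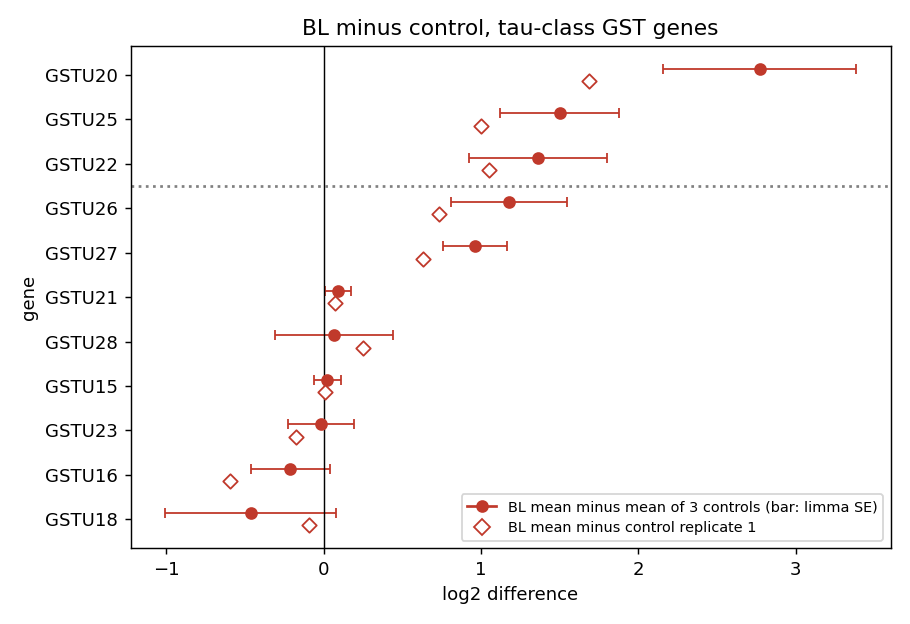
The log2 difference (horizontal axis) of 11 tau-class genes (vertical axis), as the BL mean minus the mean of 3 controls (filled circles, bars show the limma standard error) and as the BL mean minus control replicate 1 (open diamonds), with the 3 members above the dotted line. From GSTU20 at 2.77 and 1.69 to GSTU27 at 0.96 and 0.63, each diamond lies left of its circle, and the other 6 genes lie within 0.6 of 0.

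Neighbours in gene order did not all have like values. In gene order GSTU23, GSTU22, GSTU21, GSTU20 and GSTU19 form a cluster of 5 tandem copies, 4 of them measured, and GSTU24, GSTU25 and GSTU26 form another of 3 with 2 measured. In the larger cluster the measured genes ran, in gene order, at log2 differences of -0.02, 1.36, 0.09 and 2.77. Each member there thus had a neighbour without a comparable difference. However, GSTU21 lay below the lower quartile on every array, and GSTU23 on 2 BL arrays and 1 control array. At so low a signal a difference could go unseen. In the smaller cluster the adjacent GSTU25 and GSTU26 were both higher, by 1.501 and 1.18. Tandem copies share sequence, and whether RNA of a copy bound the probe set of another was not tested. AT1G10350, which flanks the pair of GSTU18 and ERD9 (GSTU17), averaged 7.57 ± 0.193 (SD, n = 2) for BL and 7.25 ± 0.233 (SD, n = 3) for control. The difference, 0.32, did not pass (limma adjusted p = 0.775).

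Profiles over the 5 arrays were compared by the root mean square difference of log2 values, each gene centred on its own mean, where 0 would be an identical pattern. GSTU22 and GSTU25, which belong to different clusters, lay 0.195 apart, and 2 of 13345 genes outside the family were nearer to GSTU22 than GSTU25 was. GSTU26 lay 0.265 from GSTU25 and GSTU27 lay 0.343 from it. GSTU20 was 0.773 from GSTU25 and 0.934 from GSTU22, with 100 and 228 genes outside the family nearer to GSTU20 than these. The distance reflects the size of a difference as well as its shape, and all genes were measured on the same 5 arrays. The members were chosen for higher BL values on these arrays, so likeness between them partly follows from the choice and carries no test.

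The genes outside the family nearest to GSTU20 were CuAO1, a copper amine oxidase, at a distance of 0.232, sks16, a relative of the multicopper-oxidase-like protein SKU5, at 0.361, and AT5G43030 at 0.378. CuAO1 had log2 values of 7.57 and 7.84 on the BL arrays, against 6.07, 4.77 and 4.97 on control replicates 1, 2 and 3. As for GSTU20, its highest control was replicate 1 and its lowest replicate 2. Nearest to GSTU22 were AT2G04500 at 0.142, AT4G01140 at 0.183 and WRKY6, a transcription factor of senescence and phosphate starvation, at 0.211. AT2G04500 was also nearest to GSTU25, at 0.144, followed by AT1G06620 at 0.146 and ALDH2C4, an aldehyde dehydrogenase that makes ferulic and sinapic acid, at 0.163. ALDH2C4 had log2 values of 9.09 and 9.32 on the BL arrays, against 8.36, 8.06 and 7.03 on control replicates 1, 2 and 3. Because they were picked for likeness to genes chosen for this contrast, their differences from control carry no test. Nor does a shared order of the controls, whose values entered the same distance.

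**Figure D4:**
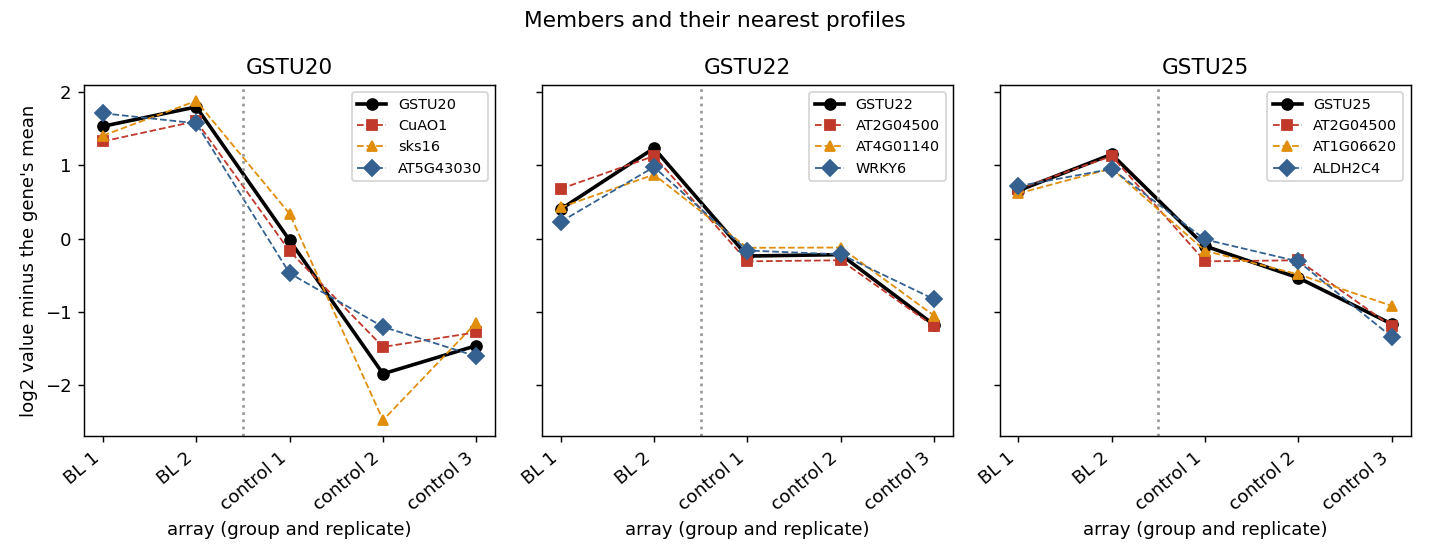
The log2 value minus the gene's own mean (vertical axis) on each array (horizontal axis, BL arrays left of control arrays) for GSTU20, GSTU22 and GSTU25 in black and for the 3 nearest genes outside the family in colour, with lines that only join the points of a gene. GSTU22 and GSTU25 share AT2G04500 as nearest gene, at distances of 0.142 and 0.144, and GSTU20 shows the wider distance between BL and control arrays.

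Other steps of glutathione metabolism were thinly covered. Of other glutathione transferase classes, 2 genes were measured. GSTF4, of the phi class, had log2 values of 3.69 and 3.67 on BL replicates 1 and 2, against 4.23, 7.62 and 7.28 on control replicates 1, 2 and 3. The high values were those of control replicates 2 and 3, whose spike-in values stood apart. Its log2 difference was -2.69 ± 1.17 (SE), and -0.55 against control replicate 1, and it did not pass (limma adjusted p = 0.743). Both BL values lay below the lower quartile of their arrays, where the signal over background is unknown, and with a floor at the 25th percentile of the table the difference was -2.21. GSTL3, of the lambda class, differed by 0.38 ± 0.482 and by -0.26 against control replicate 1. Of the 29 symbols searched for glutathione synthesis, reduction and turnover, 3 were measured, and all 3 had a lower mean with BL, as did 54.8% of all probe sets. GR1 and GR, the glutathione reductases of the cytosol and of the organelles, differed by -0.13 and -0.08. SUFE2, which was on that list but is known for iron-sulphur cluster assembly, had log2 values of 7.85 and 8.07 with BL, against 9.55, 8.71 and 9.42 on control replicates 1, 2 and 3. Its log2 difference of -1.27 ± 0.301 (SE), and -1.59 against control replicate 1, did not pass (limma adjusted p = 0.580). The list had a median of -0.13 and 0 genes passed. The ABCC transporters, which carry glutathione conjugates into the vacuole, had no measured gene under the symbols searched.

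Of 38 symbols searched for the xenobiotic and oxylipin response, 8 genes were measured, 6 with a higher and 2 with a lower mean with BL, where 45.2% of all probe sets were higher. Against control replicate 1 there were 5 of 8 higher, where all probe sets had 50.5%. None of the 8 passed, as was true of all probe sets (0% called by limma). UGT73B5, a glycosyltransferase of redox and pathogen responses, had log2 values of 8.79 and 8.56 on BL replicates 1 and 2, against 7.11, 6.73 and 5.70 on control replicates 1, 2 and 3. The groups did not overlap, and as for GSTU25 the controls were highest on replicate 1 and lowest on replicate 3. The log2 difference was 2.16 ± 0.469 (SE), a fold of 4.47, and 1.57 against control replicate 1 (limma adjusted p = 0.568). Its relative UGT73B4 differed by 1.39 ± 0.701, but by 0.20 against control replicate 1. NQR (AT3G27890), a quinone reductase, had log2 values of 7.95 and 8.50 with BL, against 9.31, 10.13 and 9.23 on control replicates 1, 2 and 3. It thus lay on the other side, by -1.33 ± 0.365 (SE), and by -1.08 against control replicate 1 (limma adjusted p = 0.614). Another gene of the list with the symbol NQR, AT1G49670, differed by 0.39, and by -0.17 against control replicate 1. ALDH7B4, a stress-related aldehyde dehydrogenase, differed by 0.36, by 0.19 without control replicate 2 and by 0.18 against control replicate 1. The median of the list was 0.33, and 0.12 against control replicate 1, beside -0.02 and 0.00287 over all probe sets.

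Genes of the pathways linked to the hormone and to GSTU20 were few. BRL1, a receptor, averaged 5.90 ± 0.196 (SD, n = 2) for BL and 5.20 ± 0.949 (SD, n = 3) for control. Control replicate 2 was the low one, at 4.104, and the log2 difference was 0.70 over all arrays, 0.156 without that array and 0.21 against control replicate 1. BAT1, which inactivates brassinosteroids, averaged 7.67 ± 0.59 (SD, n = 2) for BL and 9.30 ± 0.667 (SD, n = 3) for control. Neither passed (limma adjusted p 0.810 and 0.653). Of the jasmonate list no symbol had a probe set that names 1 gene. In the aliphatic glucosinolate list, a pathway in which GSTU20 is known to take part, 2 of 20 symbols were measured. BCAT4, of methionine chain elongation, differed by -0.09, and UGT74B1, which glucosylates the thiohydroximate, by -0.23 ± 0.798. For UGT74B1 control replicate 1 stood at 10.25 and the other controls at 8.00 and 8.13, with both BL arrays at 8.56.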

How the data were processed

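The samples were 5 Affymetrix ATH1 arrays, grouped and numbered by their titles. The values are deposited log2 expression values from RMA (background subtraction, quantile normalization and median polish over the probes of a probe set), with R 4.1.1, affy 1.70.0 and limma 3.48.3, per the submitters' processing notes. No source used here states the base of the logarithm, and 2 was assumed because RMA uses it and the values fit its range. Scanner files were not used here, so how far a signal lies over background is unknown, and probe sequences were not used here.

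Of 22810 probe sets, 64 controls were set aside. Gene names came from the platform annotation, in which 13513 of the other 22746 name 1 gene, 503 several and 8730 none. Loci and gene order came from RefSeq genes (assembly TAIR10.1), used for names and neighbours only, which held 13436 of the 13513. Every measured tau-class gene had 1 probe set. For other genes with several, the one with the highest mean was used.

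BL was compared with control in limma 3.58.1 (R 4.3.3, lmFit and eBayes, 5 arrays, no term but treatment). Benjamini-Hochberg adjustment ran over 22746 probe sets, with a threshold of 0.05. The fit had 3 residual degrees of freedom. Its code was run on simulated data with the same spread in both groups. Here the median SD was 0.264 over controls and 0.0816 over BL arrays, so that run does not vouch for the fit under unequal spread. The members were chosen by this contrast, so their own differences are given with a standard error and no test. The members and gene lists were chosen with earlier results of these data known. The named genes are the members, every other measured GSTU gene, up to 4 measured genes per list with the smallest unadjusted p, the 3 genes outside the family with the profile nearest each member, and genes next to a tandem cluster. Another gene with the symbol NQR is named as well, because it shares that symbol. Likeness of profiles was the root mean square difference over the 5 arrays of log2 values, each gene centred on its own mean. Alternatives changed the terms of the fit, the arrays, the normalization, a floor, the array weights, the variance model and the probe sets tested. Promoter motifs and protein sequences were not analysed here.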

Additional observations from a re-analysis of the deposited data

How the results depend on the processing

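The members were chosen with every BL array above every control, so their sign could not turn when arrays were left out, blocked or weighted, and it shows nothing about stability. With a term for control replicates 2 and 3, which leaves BL against control replicate 1, GSTU20 was at 1.69 and GSTU25 at 1.002, both lower by more than the spread between replicates, because controls 2 and 3 no longer enter. With the replicate block GSTU20 was at 2.59, GSTU25 at 1.22 and GSTU22 at 1.04. Only control replicate 3 has that number, so the block takes this array out of the difference. The values are therefore those without control replicate 3, which turned GSTU28 to -0.14 and GSTU23 to 0.074. Across probe sets, deviations from the group mean had a correlation of -0.0601 between BL and control replicates 1, and of 0.0374 between BL and control replicates 2, which do not show that the numbers pair the arrays. With 1 array left out, GSTU20 ran from 2.403 to 3.31, GSTU25 from 1.22 to 1.75 and GSTU22 from 0.94 to 1.78. No probe set was called at an adjusted p under 0.05 in any alternative, and the smallest adjusted p was 0.0502 with the floor. As a description, 356 probe sets combined an unadjusted p under 0.01 with a 1.5-fold difference or more. Above the median level, GSTU26 and GSTU27 were the only background genes left, with a median of 1.07. GSTU23 turned to 0.0030 with quantile normalization and GSTL3 to -0.26 with the term for controls 2 and 3. With 1 array left out both signs arose for GSTU28 (-0.18 to 0.36), GSTU15 (-0.037 to 0.080), GSTU23 (-0.19 to 0.074), GSTU18 (-0.77 to 0.026), UGT74B1 (-0.63 to 0.49), GR (-0.19 to 0.023) and GSTL3 (-0.0052 to 0.70). None of these genes passed, and what caused the turns was not tested. With the floor, GSTU21 was at the floor on every array and gave no value. Signal over background, which limits the low genes, was not analysed here.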
